A study of Mus musculus with 18 samples.

Results

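The genes described here encode the constitutive proteasome and its regulators. They were chosen by a name rule, set with earlier results of these data known. Every gene symbol that began with Psma to Psmg and a digit, without the immunoproteasome genes Psmb8, Psmb9 and Psmb10, was taken where a probe set carried that symbol and no other. This gave 46 of the 15964 genes measured, and each gene was read from its brightest probe set, by the mean of log2(intensity + 16). Of the 46, 44 encode subunits, regulators or assembly chaperones of the proteasome, and 2, Psmc3ip and Psme3ip1, match the pattern but encode no subunit. The cells came from retinas of FVB/N mice at postnatal day 8 that were homozygous for a Tie2-GFP transgene, whose promoter drives GFP in endothelial cells and is also known from some blood cells. FVB/N is an inbred strain known to carry a retinal degeneration allele of Pde6b, so both populations share that background. Retinas were pooled, digested with papain, and sorted by flow cytometry into GFP-positive (endothelial) and GFP-negative (all other retinal) cells. Amplified RNA of each population was hybridised to 3 arrays on each of 3 Affymetrix chips, A, B and C, which gave 18 arrays, and 40 of the 46 genes were read from chip A, 3 from chip B and 3 from chip C.

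The proteasome degrades proteins that have been tagged with ubiquitin. Its 20S core is a barrel of alpha rings, which gate the entry, and beta rings, which hold the proteolytic sites. The 19S particle caps the core: its base, a ring of ATPases with a few scaffold and receptor proteins, unfolds the substrate, and its lid removes the ubiquitin. Other activators can replace the 19S particle, and dedicated chaperones assemble the core and the base. In cells exposed to interferon, and in many immune and endothelial cells, the catalytic beta subunits are partly exchanged for those of the immunoproteasome.

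The populations matched their labels by most markers of 3 lists. Of 10 endothelial genes 8 were higher in GFP-positive cells and 0 lower, while Kdr and Pecam1 did not differ (0.01 and -0.05). Of 6 measured genes of retinal neurons and progenitors 4 were lower and 1 higher, and of 5 Muller glia genes 4 were lower and 0 higher. Photoreceptor and pericyte lists hardly separated the populations, with 1 of 5 and 1 of 6 measured genes lower, 0 higher, and medians of 0.01 and -0.14. Of 7 genes of the dissociation stress response, Fos, Jun and Egr1 were lower in GFP-positive cells, the list's median difference was -1.15, and its part in the differences of proteasome genes was not tested. The median intensity of an array lay between 32.5 and 44.6 units over the 3 chips. GFP-positive replicate 3 stood apart, with rank correlations of 0.911 to 0.929 with the other arrays of its population, against 0.960 to 0.987 for all pairs without it. Calls of members that depend on it are given with and without it. Whether replicate arrays hold RNA from different mice is not stated in the labels; the p-values therefore measure array-to-array spread alone, and that spread may be technical. The number of arrays limits the precision. In sorted bulk RNA, fewer cells of a type and less RNA per cell cannot be told apart.

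For this machinery, the sort allows retinal endothelium at this age to be set against the rest of the retina. Most proteasome genes did not pass the test in either direction. At an adjusted p under 0.05 (limma, Benjamini-Hochberg within the chip), 3 of the 46 genes were higher in GFP-positive cells and 4 were lower. Over all genes, read in the same way, 9.83% were higher, 11.9% lower and 21.8% called in either direction. Among the members 6.52% were higher and 8.70% lower. These gaps amount to few genes among 46 and were not tested. They also changed with the arrays: without GFP-positive replicate 3, 9 members were higher and 4 lower, against 14.9% and 17.1% of all genes. With all arrays, the genes that rose were Psma8, Psmc3 and Psma3, and those that fell were Psmd2, Psmd8, Psmd11 and Psme3ip1. The median log2 difference, GFP-positive minus GFP-negative on log2 of intensity plus 16, was -0.002 over the members and 0.04 over all genes. This scale understates the change of dim genes.

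For 14 of the 46 genes the array values of both populations were fully separate, 7 with GFP-positive cells above and 7 below, where 41.4% of all genes showed no overlap. Only 2 members, Psma8 and Psmc3, differed at least 2-fold, or 4.35% against 11.8% of all genes. The 95% interval of the difference stayed within 2-fold either way for 31 members, or 67.4%, against 71.8% of all genes. Of the remaining 15, Psma8 had an interval of 1.12 to 1.48, wholly beyond 2-fold. For the others the arrays could not place the difference on either side of 2-fold. The mean intensity of 43 of the 46 genes was at or above the median of their chip, and the 3 below it were Psma8, Psmc4 and Psmc3ip.

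**Figure D1:**
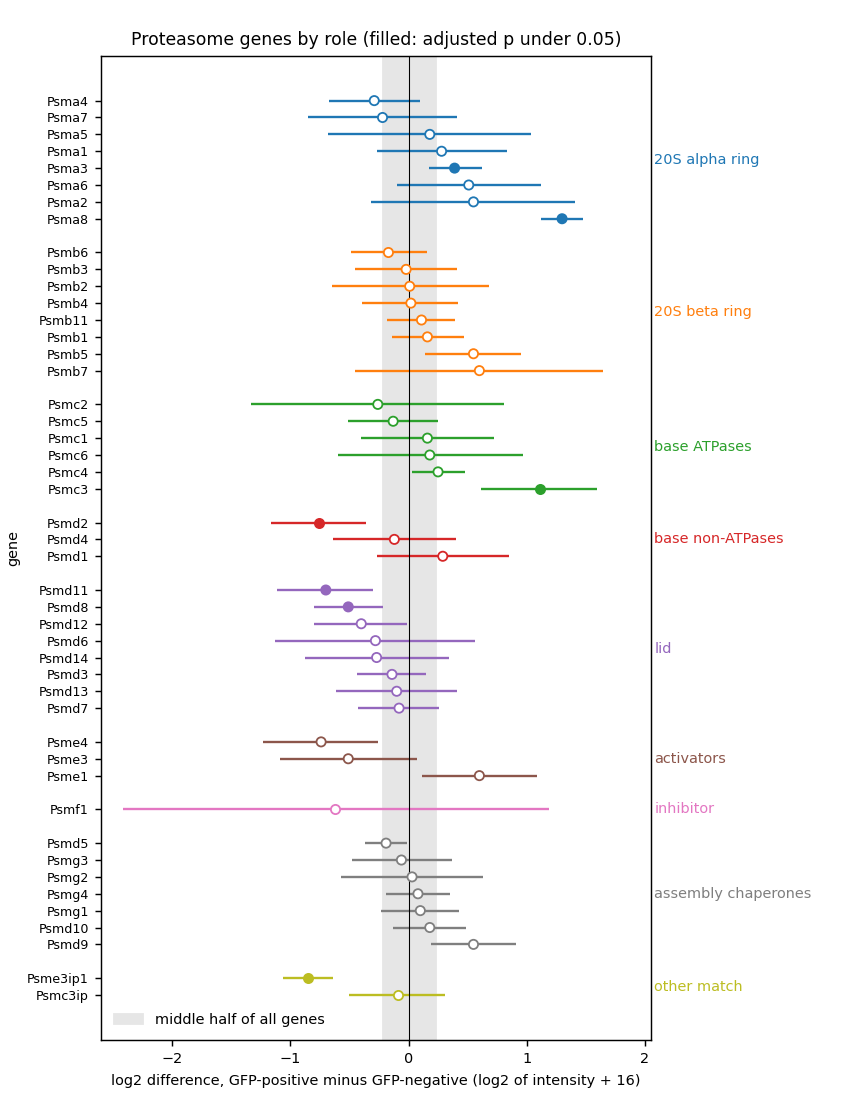
Log2 difference (GFP-positive minus GFP-negative, log2 of intensity plus 16) of the 46 genes, grouped by role. Points are estimates, lines their 95% intervals from limma, filled points passed an adjusted p of 0.05, and the grey band spans the quartiles of all genes, from -0.22 to 0.23. In this fit of all arrays the 8 lid genes shown, without Sem1, lie left of 0, and 12 of the 16 genes of the 20S core lie right of it.

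By part of the complex, the 16 genes of the 20S core had a median difference of 0.17, with 12 above 0, 2 called higher and 0 lower. The 17 genes of the 19S particle had a median of -0.13, with 12 below 0, 1 called higher and 3 lower. The difference between core and 19S particle was not tested. Among all genes, 44.1% lay below 0.

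The alpha ring held 2 of the 3 genes that rose, and 6 of its 8 genes lay above 0, with a median of 0.34. Psma3, a constitutive alpha subunit, read 3213, 2937 and 2759 intensity units in GFP-positive replicates 1 to 3 and 2200, 2137 and 2434 in the GFP-negative ones. All 3 GFP-positive arrays stood above all GFP-negative arrays, and the log2 difference was 0.39 (SE 0.09, adjusted p = 0.0331, limma). This call was lost without GFP-positive replicate 1 or 2 (adjusted p = 0.0831 and 0.0912) and without GFP-negative replicate 1, 2 or 3 (0.120, 0.103 and 0.0593). It rests on a probe set whose suffix marks a sequence family, and the other Psma3 probe sets, both on chip C, gave -0.44 and -0.16 and did not pass. Under quantile normalization the difference was 0.07, and the call also ended with a pseudocount of 1 (adjusted p = 0.0639), with limma-trend (0.0751) and among brighter probe sets only (0.0525).

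Psma8, an alpha subunit known from the testis and a close relative of Psma7, read 51.9, 50.4 and 46.4 in GFP-positive and 9.07, 11.8 and 11.2 in GFP-negative cells. The groups were far apart although dim, with a log2 difference of 1.3 (SE 0.07, adjusted p = 0.000325, limma), and the gene passed whichever array was left out. This probe set also carries the suffix of a sequence family, so signal from related transcripts cannot be told apart, and a second Psma8 probe set stayed between 7.08 and 13.9 on all arrays (0.12, adjusted p = 0.507). Psma7 itself read 164, 72.0 and 102 against 134, 134 and 115, so its groups overlapped.

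The other alpha genes did not pass, but several depended on a single array. Psma6 read 956, 807 and 510 in GFP-positive and 608, 497 and 441 in GFP-negative cells, a difference of 0.51 (adjusted p = 0.241), and Psma2 read 305, 214 and 107 against 132, 146 and 105 (0.55, adjusted p = 0.374). In both, GFP-positive replicate 3 was the lowest of its population and reached into the GFP-negative range. Without that array Psma6 was 0.76 and Psma2 0.93 (adjusted p = 0.0197 for each), and Psma1 moved from 0.28 to 0.51 (adjusted p = 0.0439). Psma4, Psma5 and Psma7 lay between -0.29 and 0.18.

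No gene of the beta ring passed the test, and the ring's 8 differences ran from -0.17 to 0.60 with a median of 0.06. The proteolytic sites of the core belong to Psmb5 (chymotrypsin-like), Psmb6 (caspase-like) and Psmb7 (trypsin-like). Psmb5 read 1036, 694 and 745 in GFP-positive and 535, 621 and 503 in GFP-negative cells. All GFP-positive arrays were above the others, yet the difference of 0.55 (SE 0.17, 95% interval 0.14 to 0.95) missed the threshold (adjusted p = 0.0664), and it passed under quantile normalization (0.67, adjusted p = 0.0329). This Psmb5 probe set carries the suffix of a sequence family. The Psmb5 probe sets on chip A gave 0.36 (adjusted p = 0.189) and 0.01, the latter with GFP-positive replicate 3 at 404 and the other GFP-positive arrays at 28.3 and 28.6. Psmb6 read 110, 83.4 and 73.4 against 104, 97.4 and 100.5 and overlapped (-0.17, interval -0.49 to 0.16). Psmb7 read 199, 134 and 50.4 against 84.9, 65.4 and 59.3, so GFP-positive replicate 3 was the lowest of all 6 arrays. Its difference was 0.60 (adjusted p = 0.424) with that array and 1.08 (adjusted p = 0.0144) without it. Psmb4, a structural subunit, read 2016, 1307 and 1584 against 1613, 1688 and 1477, and its difference of 0.02 had an interval of -0.39 to 0.42. The Psmb7 and Psmb4 probe sets also carry the suffix of a sequence family. A Psmb4 probe set without a suffix averaged only 29.1 in GFP-positive and 29.3 in GFP-negative cells (-0.01). The structural subunits Psmb1, Psmb2 and Psmb3 and the thymus-specific Psmb11 lay between -0.02 and 0.16. Other Psmb1 probe sets differed from its brightest, and none passed. The next brightest read 518, 289 and 196 against 196, 191 and 143 (0.77, adjusted p = 0.198, limma). The dim ones gave -0.35 (adjusted p = 0.0837) and -0.03.

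The 3 genes left out by the rule, whose products replace these catalytic subunits in the immunoproteasome, gave 2 of 3 higher in GFP-positive cells when each was read from its brightest probe set: Psmb9 by 1.70 and Psmb10 by 1.09 (adjusted p = 0.0057 and 0.035, limma), while Psmb8, read from chip C, did not pass (-0.30, adjusted p = 0.313). The Psmb8 probe set on chip A read 422, 244 and 132 against 16.3, 15.5 and 12.2 and was higher (3.07, adjusted p = 0.00333). The difference between these genes and their constitutive counterparts was not tested. Of 8 microglial and leukocyte markers 2 were also higher in GFP-positive cells, C1qb and Lcp1, and the summed level of the 8 was 1189 to 2462 there against 323 to 357. Most of that sum was Lcp1, at 908 to 1268 against 15.5 to 25.3, and Ptprc, Aif1, Cx3cr1 and Tyrobp did not pass. Csf1r read 930 on GFP-positive replicate 3 and 37.3 and 41.2 on the others. None of the 8 was at 0, and the part of such cells in these values was not tested.

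In the base of the 19S particle, 1 of 6 ATPase genes rose and none fell. Psmc3, 1 of these ATPases, read 962, 943 and 597 in GFP-positive and 332, 410 and 372 in GFP-negative cells. The GFP-positive arrays were all higher, with a log2 difference of 1.11 (SE 0.20, adjusted p = 0.0145, limma), and leaving out GFP-negative replicate 1 or 3 ended the call (adjusted p = 0.0620 and 0.0610). Its probe set is marked as a sequence family, and the 4 other Psmc3 probe sets gave -0.13 to 0.26 and did not pass. All 3 genes called higher thus rest on probe sets with that suffix, and none was called when such probe sets were left out.

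The ATPase gene Psmc6 read 824, 600 and 382 against 587, 366 and 595, with wide overlap (0.18, interval -0.60 to 0.97). Psmc4 was dim, at 29.9, 32.8 and 40.3 against 26.9, 25.7 and 25.6, and its groups did not overlap although it did not pass (0.25, adjusted p = 0.163). Psmc1, Psmc2 and Psmc5 lay between -0.26 and 0.16.

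Of the base genes that are no ATPases, 1 of 3 fell. Psmd2, a large scaffold protein to which substrate receptors bind, read 53.9, 49.1 and 76.0 in GFP-positive and 130, 106 and 98.5 in GFP-negative cells. All GFP-positive arrays were lower, with a difference of -0.76 (SE 0.16, adjusted p = 0.0250, limma). The call held without GFP-positive replicate 3, but was lost without GFP-positive replicate 1 or 2 (adjusted p = 0.0673 and 0.0752) and without GFP-negative replicate 1, 2 or 3 (0.0874, 0.0733 and 0.0616). The other large scaffold protein, Psmd1, went the opposite way without passing, at 426, 345 and 219 against 248, 264 and 262 (0.29, adjusted p = 0.473). Leaving out GFP-positive replicate 3 gave 0.54 and a call (adjusted p = 0.0172). The ubiquitin receptor Psmd4 did not pass (-0.12, interval -0.64 to 0.40).

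The 8 lid genes of the naming pattern all lay below 0, from -0.70 to -0.08 with a median of -0.28, and 2 of them fell. Sem1, a lid subunit outside the pattern, went the opposite way and was called higher (0.74, adjusted p = 0.0278, limma). Psmd11, a scaffold protein of the lid, read 150, 219 and 156 in GFP-positive and 254, 295 and 329 in GFP-negative cells, with no overlap and a difference of -0.70 (SE 0.17, adjusted p = 0.0357, limma). A second Psmd11 probe set read 22.2, 21.4 and 19.6 against 35.1, 25.1 and 35.0, again without overlap (-0.36, adjusted p = 0.0715), whereas the remaining one, marked as less specific, gave 0.76, with GFP-positive replicate 3 at 232 and the others at 86.9 and 92.2. Psmd8, a lid subunit needed to complete its assembly, read 184, 151 and 135 against 230, 241 and 215, also without overlap (-0.51, SE 0.12, adjusted p = 0.0345). The Psmd11 call ended without GFP-positive replicate 1 or 3 (adjusted p = 0.0855 and 0.0532) or GFP-negative replicate 1, 2 or 3 (0.0621, 0.108 and 0.128). The Psmd8 call ended without GFP-positive replicate 2 (adjusted p = 0.106) or GFP-negative replicate 1, 2 or 3 (0.116, 0.111 and 0.0867). Both calls also ended with limma-trend (adjusted p = 0.0603 for Psmd11 and 0.0994 for Psmd8).

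Psmd12, another lid scaffold, was lower on every GFP-positive array, at 153, 149 and 104 against 207, 164 and 179, and did not pass (-0.40, adjusted p = 0.156). Its probe set carries the suffix of a sequence family. Psmd7, the partner of the deubiquitinase, was nearly level at 622, 454 and 497 against 621, 510 and 530 (-0.08, interval -0.43 to 0.26). Psmd14, the deubiquitinase of the lid, read 506, 479 and 272 against 572, 436 and 475 (-0.27, interval -0.88 to 0.34). Psmd3, Psmd6 and Psmd13 lay between -0.28 and -0.10, with overlapping arrays.

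**Figure D2:**
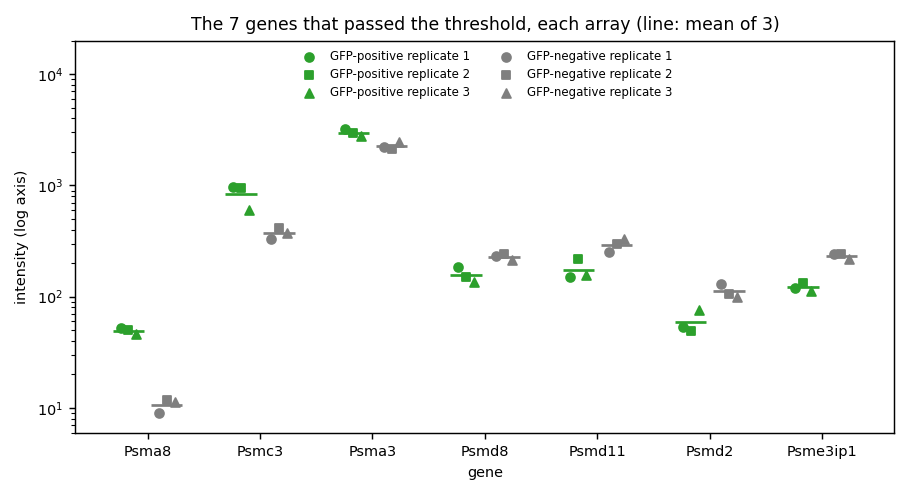
Intensity (log axis) of the 7 genes that passed the threshold on each of the 6 arrays of their chip, GFP-positive in green and GFP-negative in grey, with the mean of 3 as a line. In every gene shown the populations do not overlap, and the differences run from 1.3 for Psma8 to -0.85 for Psme3ip1 on the log2 scale.

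The promoters of the 3 subunit genes that fell, all of the 19S particle, are shown with that of Psma3, which rose in the core, as the 120 bases before the annotated transcript start (RefSeq, GRCm38.p6, 5′ to 3′ on the gene's strand). Capitals mark a GC box, GGGCGG.
Psmd2, chr16:20651532-20651651, plus strand: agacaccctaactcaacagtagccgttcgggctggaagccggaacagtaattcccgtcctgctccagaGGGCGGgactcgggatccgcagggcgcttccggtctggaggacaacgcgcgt
Psmd8, chr7:29180674-29180793, minus strand: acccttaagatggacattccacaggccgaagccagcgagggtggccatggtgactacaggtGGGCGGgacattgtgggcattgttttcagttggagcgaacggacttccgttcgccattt
Psmd11, chr11:80428495-80428614, plus strand: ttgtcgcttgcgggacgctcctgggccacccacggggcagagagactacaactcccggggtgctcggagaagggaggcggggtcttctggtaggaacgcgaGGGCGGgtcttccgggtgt
Psma3, chr12:70974503-70974622, plus strand: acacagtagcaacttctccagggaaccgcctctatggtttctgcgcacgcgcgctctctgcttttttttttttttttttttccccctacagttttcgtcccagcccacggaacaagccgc
Each of the 3 promoters of the 19S genes held 1 GC box in its 250 upstream bases, and the Psma3 promoter held none there. No promoter was found for Psmc3 and Psma8, which also rose, and a link between GC box and direction was not tested. A promoter was found for 38 of the 46 genes, and a GC box on either strand lay within the 250 upstream bases of 21 of them, or 55.3%, against 35.4% of all 27025 genes with a promoter. That larger set includes genes not measured on the chips and was not matched to the members for intensity, so the gap need not be particular to proteasome genes. It was present in 5 of 6 lid genes and in 5 of 12 core genes. A CCAAT box was present in 15 of the 38 (39.5%, against 37.5% of all genes). The element bound by Nfe2l1, the factor that drives proteasome genes when the proteasome is inhibited, was searched as TGACNNNGC and was present in 5 (13.2%, against 11.5%), namely Psmb5, Psmb6, Psmc6, Psmd12 and Psmd9. The core of the interferon-stimulated response element (GAAA, any 2 bases, and GAAA again) was present in 3 (7.89%, against 3.46%), and the gamma-activated site, TTCNNNGAA, in 1 (2.63%, against 8.13%). No motif searched overlapped another in the stretches shown. A match of letters is a description of the sequence.

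None of the 3 measured activator genes passed, and they pointed in both directions. Psme4, a large activator known from DNA repair and sperm development, read 123, 111 and 96.0 in GFP-positive and 229, 140 and 225 in GFP-negative cells. The arrays did not overlap, and the difference of -0.74 (SE 0.20) narrowly missed the threshold (adjusted p = 0.0512). It passed without GFP-negative replicate 2 (-0.95, adjusted p = 0.0108), under quantile normalization (-0.71, adjusted p = 0.0380) and with a pseudocount of 1 (-0.82, adjusted p = 0.0447). A Psme4 probe set on chip C, marked as less specific, pointed the other way (0.34, adjusted p = 0.187). Psme1, a subunit of the interferon-inducible activator, read 152, 139 and 89.4 against 85.2, 82.3 and 63.1, with all GFP-positive arrays above (0.60, SE 0.20, adjusted p = 0.101). Without GFP-positive replicate 3, the lowest of its population, it was 0.80 and passed (adjusted p = 0.00913). Its partner Psme2 could not be read alone, because its probe sets also name Psme2b, and the brightest of these read 178, 125 and 104 against 81.7, 76.2 and 71.6 (0.68, adjusted p = 0.0501). Psme3, which forms a nuclear activator, read 25.4, 61.6 and 36.1 against 53.8, 70.1 and 64.4 and overlapped (-0.51, adjusted p = 0.216). It passed without GFP-positive replicate 2 (-0.76, adjusted p = 0.0360).

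Psmf1 encodes an inhibitor of the core in purified systems, and its brightest probe set turned on 1 array. The brightest, on chip B, read 133, 130 and 1052 in GFP-positive and 392, 536 and 360 in GFP-negative cells, so GFP-positive replicate 3 was the highest of all arrays and the other GFP-positive arrays the lowest. Its difference was -0.62 (SE 0.75, adjusted p = 0.594) with that array and -1.57 (adjusted p = 0.000715) without it. Of the other probe sets on chip B, 1 read 60.4, 75.1 and 64.1 against 166, 164 and 129, and the other 23.6, 33.3 and 25.4 against 75.1, 61.4 and 77.4. In both, replicate 3 lay with its population, and both were lower in GFP-positive cells, by -1.03 and -1.01 (SE 0.13, adjusted p = 0.00208 and 0.00213, limma). The first of these carries the suffix of a sequence family. The chip C probe sets were dim and did not pass (-0.16 and -0.10).

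**Figure D3:**
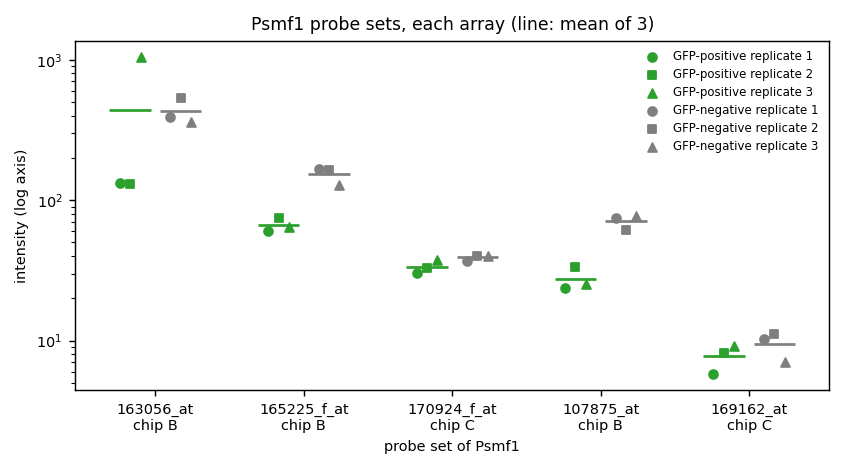
Intensity (log axis) of the 5 Psmf1 probe sets on each array, GFP-positive in green and GFP-negative in grey, with the mean of 3 as a line and the replicate shown by the marker. In the brightest probe set GFP-positive replicate 3 reads 1052 while replicates 1 and 2 read 133 and 130, and in the other 2 probe sets of chip B all GFP-positive arrays lie below all GFP-negative ones.

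Of the 7 assembly chaperones 0 were called, and every 95% interval lay within 2-fold. Psmd9, a chaperone of the base, read 152, 104 and 126 in GFP-positive and 79.1, 91.8 and 72.4 in GFP-negative cells. All GFP-positive arrays were higher, and the difference of 0.55 (SE 0.15) lay just outside the threshold (adjusted p = 0.0506). It passed without GFP-positive replicate 2 (0.67, adjusted p = 0.0348), under quantile normalization (0.59, adjusted p = 0.0457) and with a pseudocount of 1 (0.63, adjusted p = 0.0493). The Psmd9 probe set carries a suffix for lower specificity. Psmd5, also a chaperone of the base, was lower on every GFP-positive array by a small amount, at 89.6, 83.6 and 92.8 against 108, 105 and 97.0 (-0.19, adjusted p = 0.148). Its chip C probe set gave -0.30 (adjusted p = 0.0545) and its chip B probe set 0.20 (adjusted p = 0.475), and neither passed. The base chaperone Psmd10 and the core chaperones Psmg1, Psmg2, Psmg3 and Psmg4 lay between -0.06 and 0.18.

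Of the 2 genes that share the name pattern only, Psme3ip1, which encodes a protein that binds the nuclear activator of Psme3, fell from 240, 242 and 219 in GFP-negative to 120, 134 and 113 in GFP-positive cells (-0.85, SE 0.09, adjusted p = 0.00155, limma). It passed whichever array was left out, and a dimmer Psme3ip1 probe set on chip C gave 0.30 and did not pass. Psmc3ip, a cofactor of meiotic recombination, was dim in both populations, between 13.5 and 26.03 units.

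Proteasome genes varied more among the GFP-positive arrays than among the GFP-negative ones. The median SD over the 46 genes was 0.29 on the log2 scale in GFP-positive and 0.15 in GFP-negative cells, against 0.23 and 0.15 over all 10634 genes at or above the median of their chip. GFP-positive replicate 1 gave the highest value of its population for 30 of the 46 genes (65.2%, against 35.2% of those 10634 genes) and replicate 3 the lowest for 27 (58.7%, against 47.7%). For the core alone, replicate 1 was highest for 13 of 16 genes. The core's median level relative to each gene's mean over 6 arrays was 0.49, 0.07 and -0.16 in GFP-positive replicates 1 to 3 and between -0.23 and 0.00 in the GFP-negative ones. The 19S particle read -0.02, 0.10 and -0.36 in the same GFP-positive arrays and 0.01 to 0.17 in the GFP-negative ones. The core's median was above that of the 19S particle on GFP-positive replicates 1 and 3 and below it on GFP-positive replicate 2 and on all GFP-negative arrays.

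**Figure D4:**
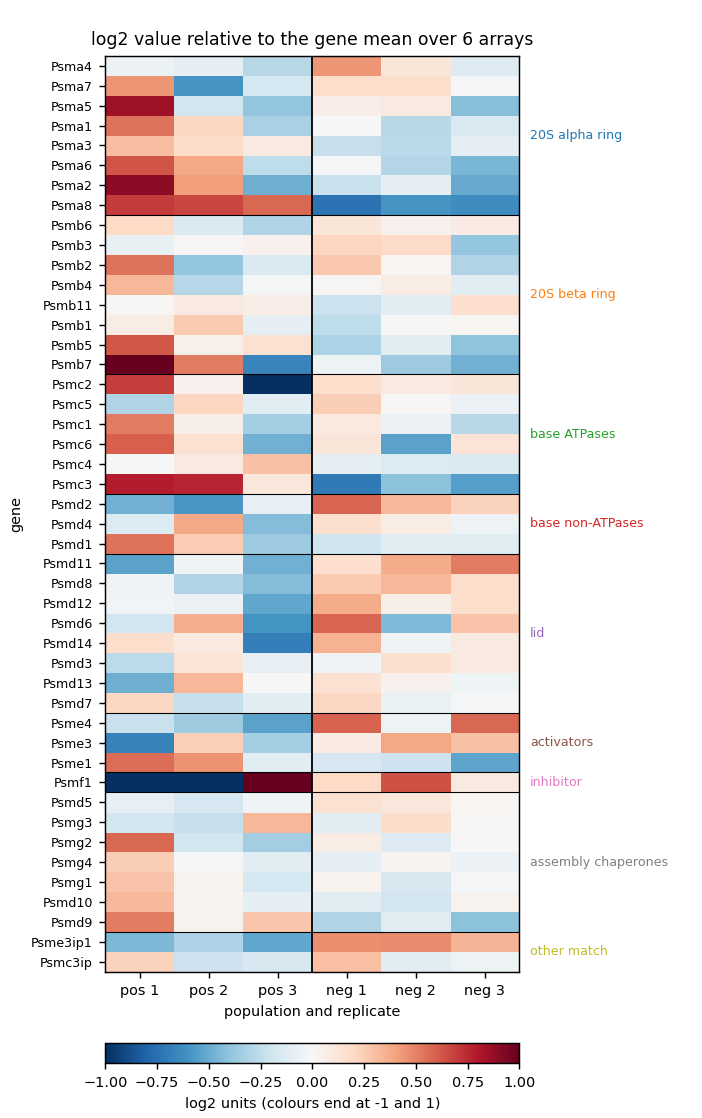
Log2 value of each of the 46 genes on each array relative to the gene's mean over its 6 arrays (columns, GFP-positive replicates 1 to 3 and GFP-negative replicates 1 to 3; rows, genes grouped by role). Red is above and blue below the gene's mean, and the core genes are mostly red on GFP-positive replicate 1, where their median is 0.49, while the lid genes are mostly blue on GFP-positive replicate 3, where theirs is -0.46.

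Without GFP-positive replicate 3, 9 members were higher and 4 lower, where all genes gave 14.9% higher and 17.1% lower. The 9 were Psma1, Psma2, Psma3, Psma6, Psma8, Psmb7, Psmc3, Psmd1 and Psme1, of which 6 belong to the core, and the 4 were Psmd2, Psmd8, Psme3ip1 and Psmf1. Without GFP-positive replicates 1 and 2 in turn, 2 and 3 were higher and 2 and 3 lower. Without GFP-negative replicates 1, 2 and 3 in turn, 1, 2 and 1 were higher and 1, 2 and 1 lower. A fit with an array less is also less precise, so a lost call need not rest on the omitted array.

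Genes that work with the proteasome, from a list of partners and regulators, gave 2 higher and 5 lower of 21 measured, with a median of -0.06, where 9.83% of all genes were higher and 11.9% lower. Sem1, the small lid subunit, rose from 400.1, 401 and 405 in GFP-negative to 844, 709 and 535 in GFP-positive cells (0.74, SE 0.16, adjusted p = 0.0278, limma). Pomp, the chaperone that completes the core, rose from 70.8, 69.4 and 57.2 to 97.4, 109 and 91.1 (0.50, SE 0.10, adjusted p = 0.0222). The Sem1 call ended without GFP-positive replicate 2 or any GFP-negative replicate (adjusted p from 0.0879 to 0.0978), and the Pomp call without any array but GFP-positive replicate 3 (0.0531 to 0.0731). The Sem1 probe set carries a suffix for lower specificity, and the best other one gave 0.16 and did not pass. Under quantile normalization Sem1 also missed the threshold (0.59, adjusted p = 0.100).

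Ubqln1, a shuttle that carries ubiquitinated proteins to the proteasome, had the largest difference of the list: 18.2, 74.4 and 49.8 in GFP-positive against 320, 185 and 307 in GFP-negative cells (-2.25, SE 0.39, adjusted p = 0.0126). It passed when any single GFP-positive array was left out, and missed without GFP-negative replicate 1 or 3 (adjusted p = 0.0564 and 0.0589). Its relative Ubqln4 fell by 0.66 (adjusted p = 0.0177) and Ubqln2 did not pass (0.17, adjusted p = 0.827). The ubiquitin ligase Ube3a read 97.0, 67.2 and 51.1 against 156, 136 and 186 (-1.02, adjusted p = 0.0224). Akirin2, which brings proteasomes into the nucleus, read 440, 546 and 433 against 879, 774 and 850 (-0.80, adjusted p = 0.00549) and passed whichever array was left out, while its best probe set without a suffix gave -0.22 (adjusted p = 0.423). Txnl1, a thioredoxin-like protein bound to the 19S particle, differed by -0.52 and passed narrowly (adjusted p = 0.0491). That call was lost with a pseudocount of 1 (0.0540) or 64 (0.0600), quantile normalization (0.0518), median centring (0.0528), limma-trend (0.109) and adjustment over all 3 chips (0.0537). The Ubqln4 call ended without any 1 of the GFP-negative arrays (0.0507 to 0.0688), the Ube3a call without GFP-positive replicate 2 or any GFP-negative array (0.0509 to 0.0875) and the Txnl1 call without GFP-positive replicate 1 or 2 or GFP-negative replicate 1 or 3 (0.120 to 0.153). The brightest partner that did not pass was Vcp, the ATPase that extracts ubiquitinated proteins, at 874, 846 and 874 against 817, 711 and 768 (0.17, interval -0.01 to 0.36). Nfe2l1 itself was 205, 152 and 144 against 122, 117 and 134 (0.37, adjusted p = 0.133).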

How the data were processed

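Amplified, biotin-labelled RNA was hybridised to MGU74v2 chips, per the labels' protocols. The authors deposited a linear intensity for each probe set. Their probe summary, background correction and array scaling are steps not given in the sources used here; they could change every difference. The deposited scaling was kept. Gene symbols came from GEO's platform annotation, without probe sets that carry several. Each chip was fitted alone on log2(intensity + 16) with limma 3.58.1 in R 4.3.3 (lmFit, eBayes, two-sided, Benjamini-Hochberg within the chip, threshold 0.05), with no replicate block. A gene was read from the probe set with the highest mean of log2(intensity + 16) over the 6 arrays, among the 3 chips. The fit was tested on simulated data with changes of 1 or 2 log2 units. Of changes of 1 unit, 65% were recovered on chip A, 78% on chip B and 82% on chip C. Of changes of 2 units, 93%, 94% and 94% were recovered. False calls numbered 9, 8 and 6 among 12422, 12411 and 11868 probe sets. Smaller changes were not simulated. The simulation shuffled the SDs among all probe sets of a chip and used the same SD for both populations. The members varied more in GFP-positive cells (median SD 0.29, against 0.17 over all genes), so these shares need not hold for them. The members, lists and roles were chosen with earlier results of these data known. Genes given in full were those called and the brightest uncalled gene of each role. Others were chosen after the values were seen. These were the catalytic beta genes, the activators, Psmf1, members with an unadjusted p under 0.05 and those called without GFP-positive replicate 3. Psma7, Psmc2, Psmd14 and the partners Ubqln2 and Nfe2l1 were also chosen then. Alternatives changed the pseudocount, normalization, filter, model, probe set choice, threshold and arrays. Replicate numbers were not used to pair the samples, and the sample titles do not say whether same-numbered arrays share a pool of retinas. Promoters came from RefSeq (GRCm38.p6). Figures were drawn with matplotlib 3.10.9.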

Additional observations from a re-analysis of the deposited data

How the results depend on the processing

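The counts of members called were 3 higher and 4 lower. The count of higher members was 10 with array weights, where 19.7% of all genes were higher against 9.83% without weights, 1 at an adjusted p under 0.01 and 0 when only probe sets without a suffix were read, and the count of lower members was 2 with limma-trend (Psmd8 and Psmd11 lost), 1 at an adjusted p under 0.01 and 0 at a minimum of 2-fold. With the replicate block, 3 members were higher and 1 lower, where 7.3% of all genes were higher and 9.78% lower. Of the 7 main calls only 3 were kept there, those of Psma8, Psmc3 and Psme3ip1. Psme1 was gained as higher (adjusted p = 0.0354, limma). Psma3, Psmd2, Psmd8 and Psmd11 were lost (adjusted p = 0.107, 0.0723, 0.0581 and 0.0543). On chip A the deviations of same-numbered arrays correlated at 0.292, -0.268 and -0.14, and not every array correlated best with its own number. With so few arrays these correlations cannot exclude pairing. Leaving out single arrays gave 1 to 9 higher and 1 to 4 lower members. Partners (2 higher, 5 lower) had 4 higher with array weights, 1 under quantile normalization, with the replicate block or without suffixed probe sets, and 0 at an adjusted p under 0.01 or a minimum of 2-fold. Their lower count was 1 at an adjusted p under 0.01 and 2 at a minimum of 2-fold, and single omissions gave 0 to 4 higher and 1 to 6 lower. The members' median difference stayed between -0.091 and 0.077 under every alternative run. Not every member was followed singly through the alternatives, and Psmc2 was not. Among those followed, signs turned for Psma3 without suffixed probe sets (-0.44) and Psmc4 on the first chip (-0.08). They also turned for Psmb4 (-0.21 quantile, -0.07 weights, -0.01 without suffixes, -0.14 to 0.17 over omissions of single arrays). Over omissions they turned for Psmc6 (-0.07 to 0.47) and Psmd7 (-0.21 to 0.01). Psma8, Psmc4 and Psmc3ip lay below the median of their chip, and the deposited values give no background to set them against.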
